A study of Mus musculus with 4 samples.

Results

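The Smr2-positive cells of the te2 mice were 370 of the 3938 te2 cells kept, and 370 of 11245 cells in all tables. A te2 cell was counted as Smr2-positive when it held at least 1000 UMIs (unique molecular identifiers, each standing for 1 captured RNA), at most 20% mitochondrial UMIs, and at least 5 UMIs of Smr2 and Smr2l together that made up at least 0.2% of its UMIs. Their levels of Smr2 and Smr2l therefore follow from the rule and are described without a test. The study sequenced single cells of the mouse ventral prostate from 2 sham and 2 te2 animals, the code te2 being left as the labels give it. All 4 animals were wild-type (wt) C57BL6j mice, and each library came from the paired lobes of 1 animal. Harvest is dated at 2 weeks after the implanting of hormone pellets. The label sham does not say what the sham animals received. Age is not given in the sources used here.

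Prostate ducts join the urethra at their proximal end, and the luminal cells there differ from the secretory luminal cells further out: they make less secretory protein and are known by genes such as Psca, Krt4, Ly6a and Clu. Proximal luminal cells of the mouse are known to survive low androgen and to form organoids readily. Smr2 is named for an androgen-regulated product of the submaxillary gland; it belongs to a family of secreted, proline-rich proteins whose genes lie together near the caseins. Smr2l is, by its symbol, a close relative of Smr2.

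Smr2 lies on mouse chromosome 5. Its promoter is shown because Smr2, together with Smr2l, is a gene of the rule that chose the members. The sequence spans 250 bases before to 50 bases after the start site (chr5:88086306-88086605, plus strand, GRCm38.p6, from RefSeq). The single match to the estrogen receptor half-site GGTCA, which lies on the reverse strand 38 bases past the start, is in capitals. 
Smr2 promoter: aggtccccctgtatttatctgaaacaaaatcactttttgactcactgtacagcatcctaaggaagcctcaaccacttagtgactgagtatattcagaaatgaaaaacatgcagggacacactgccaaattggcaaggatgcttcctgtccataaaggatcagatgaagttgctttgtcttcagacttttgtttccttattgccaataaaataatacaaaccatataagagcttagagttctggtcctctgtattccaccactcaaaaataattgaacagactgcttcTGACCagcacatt
Of 32851 promoters of this length, 40.5% hold that half-site on either strand. The androgen response half-site AGAACA (19.0% of promoters), the full estrogen response element (0.07%), the full androgen response element (0.00913%) and TTCNNNGAA, the letters that STAT5 reads (8.30%), had no match in this window on either strand.

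One further gene has to be read with the pair. Gm42164 is annotated as a processed pseudogene on chromosome 5, 101.6 kb from Smr2, and its transcript was 79.1% identical to Smr2-204 over 398 aligned columns. A stretch of 90 bases from each transcript (GENCODE M21) is shown with the 15 differing bases in capitals.
Smr2-204: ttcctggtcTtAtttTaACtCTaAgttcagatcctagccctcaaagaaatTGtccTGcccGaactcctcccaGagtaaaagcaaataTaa
Gm42164: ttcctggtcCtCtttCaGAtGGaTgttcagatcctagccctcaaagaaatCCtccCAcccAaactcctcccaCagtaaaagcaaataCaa
Of the 349 runs of 31 bases in Gm42164, 3 also occur in the 4 Smr2 transcripts, so reads of both genes cannot be fully told apart and its values are uncertain and not independent of the rule.

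Replicate 1 of te2 held 255 members among 2057 cells, or 12.4% (exact 95% binomial interval 11% to 13.9%). Replicate 2 held 115 among 1881, or 6.11% (5.07% to 7.29%). The shares of the 2 animals thus differed by more than counting error, which is all that these intervals cover. No sham cell met the same limits among 951 and 1440 cells, and neither sham table lists Smr2 or Smr2l. A gene seen in 1 or 2 cells of a library is not listed in its table, so single sham cells with the pair would not be seen. The members were deeply read, with medians of 6040 and 7499 UMIs and 2443 and 2717 genes per cell, and their median mitochondrial shares were 4.67% and 5.31%. Summed over members, the libraries gave 1963259 and 953236 UMIs. In all, 15 cell barcodes were shared between libraries, 1 of them by a member, and 1 member, in replicate 2, was called as a doublet.

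Most members held both genes. In replicate 1, 213 cells held UMIs of both, 30 of Smr2 alone and 12 of Smr2l alone; in replicate 2 the numbers were 91, 8 and 16. The pair made up a median of 0.531% and 0.603% of a member's UMIs, with a maximum of 4.81% and 7.33%, and exceeded 1% in 61 and 35 cells. Just inside the limit, at 0.20% to 0.25%, lay 18 and 11 members, and just outside it, at 0.15% to 0.20%, lay 35 and 22 cells, so the members are the upper range of a continuous spread. Members held 86.9% and 81.5% of all UMIs of the pair in their libraries.

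The balance of the pair differed between the animals and from cell to cell. Smr2 supplied 4988 of the pair's UMIs in replicate 1 beside 9396 of Smr2l, a share of 34.7% (exact 95% interval 33.9% to 35.5%). In replicate 2 it supplied 1582 beside 6229, a share of 20.3% (19.4% to 21.2%). Smr2 made up under 10% of the pair in 44 and 53 members, between 10% and 90% in 162 and 44, and at least 90% in 49 and 18. Cells near either extreme were present also among members with at least 20 UMIs of the pair, 36 and 50 of 185 and 97 at the Smr2l end and 29 and 11 at the Smr2 end.

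**Figure D1:**
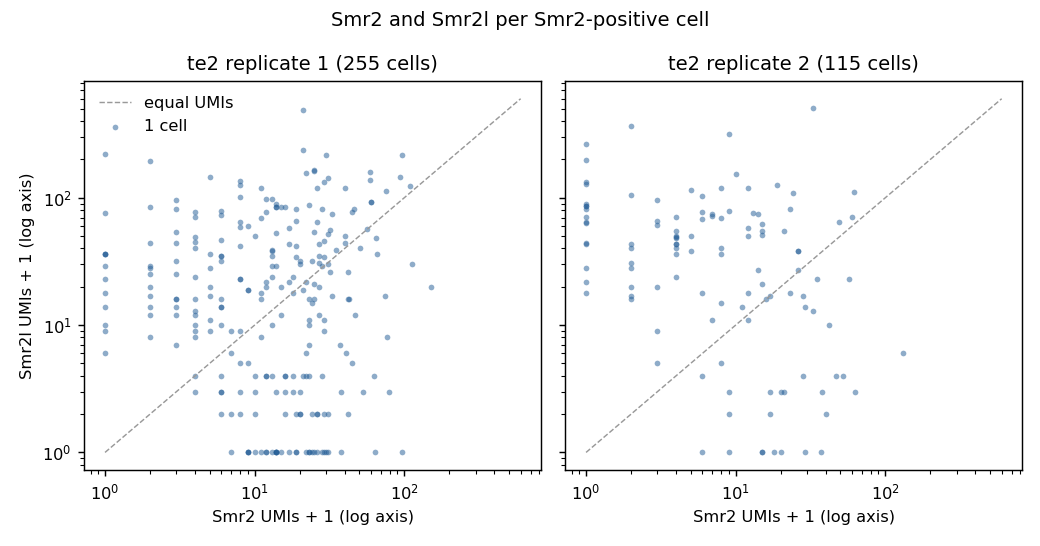
UMIs of Smr2 (x axis) and Smr2l (y axis) in each Smr2-positive cell, 1 added to each value, on log axes, with 1 panel per te2 animal and a dashed line at equal values. More cells of replicate 2 than of replicate 1 lie near the left edge, where Smr2 supplied under 10% of the pair (46.1% against 17.3% of members).

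Split at equal shares, 108 and 33 members had mostly Smr2, cells with equal UMIs of both included, and 147 and 82 mostly Smr2l. This split and its genes were chosen after the data were seen and carry no test. Of 3242 genes with a mean of at least 50 CPM (UMIs of a gene per 1000000 UMIs of the summed cells), 1883 differed in the same direction in both animals. None was at least 2-fold higher in the mostly-Smr2 cells of both animals, and 5 were at least 2-fold higher in the mostly-Smr2l cells of both. Among those was Psca, a proximal surface antigen, at 302 and 243 CPM in the mostly-Smr2 cells and 866 and 1171 CPM in the mostly-Smr2l cells. Ccnd2, a D-type cyclin, stood at 90.03 and 91.5 CPM against 249 and 268 CPM. Leaning the other way were Mmp7, a secreted metalloproteinase, at 103 and 71.6 CPM against 43.2 and 35.6 CPM, and Pglyrp1, a peptidoglycan recognition protein, at 241 and 223 CPM against 126 and 65.5 CPM. The mostly-Smr2l cells also held more RNA of the secretory product Sbp (12561 and 51140 CPM against 6832 and 12174 CPM), and 7 and 13 of them, against 2 and 1 mostly-Smr2 cells, held Sbp and Spink1 at 10% of UMIs or more.

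The pair was also seen at low level in other te2 cells. Other proximal cells, defined by Clu and Fxyd4 together at 5 UMIs and 0.2% or more, the Smr2 pair under 0.2% and Sbp with Spink1 under 10%, numbered 201 and 225 and held 189.6 and 197 CPM of the pair, beside 7327 and 8194 CPM in members. Luminal te2 cells, with Sbp and Spink1 at 10% or more and members left out, held 67.7 and 92.3 CPM. The 3 marker classes below leave out members, other proximal and luminal cells. Cells that met the Smr2 rule were thus removed from every class set beside the members, which limits the levels seen there. Cells carrying fibroblast markers held 35.1 and 26.2 CPM, those carrying basal markers 72.2 and 29.2 CPM, and those carrying macrophage markers 51.2 and 205.8 CPM. The last value rests on 56 UMIs, 25 of them in 1 cell, and lies above that of the other proximal cells of the same animal. The share of cells with a UMI of the pair was 37.3% and 32.9% in other proximal cells, 8.85% and 5.62% in fibroblast-marked, 13.2% and 6.56% in basal-marked and 15.3% and 8.11% in macrophage-marked cells. Median depth differed, at 5485 and 6490 UMIs in other proximal cells against 2229 to 2780 UMIs in these 3 classes. For cells thinned to 1000 UMIs the expected shares were 16.1% and 12.1% in other proximal cells, 3.93% and 2.11% in fibroblast-marked, 6.40% and 2.80% in basal-marked and 6.86% and 3.98% in macrophage-marked cells. The thinned share in other proximal cells was thus above those of the 3 classes in both animals, while the CPM was not above that of macrophage-marked cells in replicate 2.

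The label calls the members proximal luminal, and the marker lists were read for that. The summed level of 10 proximal markers was 4801 and 5697 CPM in members, 8325 and 9865 CPM in other proximal cells and 2383 and 2469 CPM in luminal te2 cells. That list holds Clu, which helped to choose the other proximal cells, so their higher sum follows in part from the rule. It also holds Wfdc2, a given marker of the members. Of the members, 63 (24.7%) and 49 (42.6%) also passed the Clu and Fxyd4 level, 15 and 10 passed the level of the sham Cyp2f2-type cells described further on, and 182 and 62 passed neither. The summed luminal list, nearly all of it Sbp and Spink1, which chose the luminal cells, stood at 15460 and 47107 CPM in members against 255541 and 292540 CPM in luminal cells. The 10% level of Sbp and Spink1 was reached by 9 (3.53%) and 14 (12.2%) members.

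Wfdc2, Slc39a8, Gpr83 and Cldn10 were given with Smr2 and Smr2l as markers of the members, and their levels are a description. Wfdc2, a WAP-domain protein of secretory epithelia, stood at 1407 and 895 CPM in members and 1311 and 862 CPM in other proximal cells. Slc39a8, a zinc importer, stood at 454 and 419 CPM against 399 and 469 CPM, and Cldn10, a tight-junction claudin, at 635 and 537 CPM against 631 and 599 CPM. Gpr83, a G-protein-coupled receptor, stood at 271 and 219 CPM against 446 and 318 CPM. Luminal te2 cells held less of all 4 genes, with Wfdc2 at 66.1 and 50.8 CPM, Slc39a8 at 64.0 and 94.6 CPM, Gpr83 at 63.6 and 33.1 CPM, and Cldn10, the nearest to the proximal levels, at 332 and 321 CPM. In these sums the 4 genes did not single out the members from the other proximal cells. In the comparison described further on, edgeR called 1 of the 4, Gpr83, lower in all members and none higher. Wfdc2 was called higher only in the matched members given there.

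**Figure D2:**
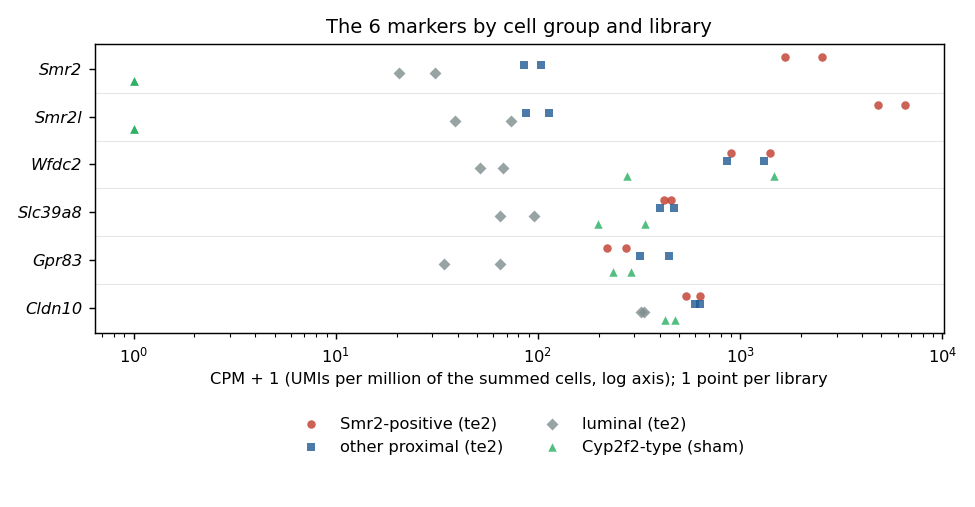
Level of the 6 markers, as CPM plus 1 on a log axis, with 1 point per library for Smr2-positive, other proximal and luminal te2 cells and Cyp2f2-type sham cells. Smr2 and Smr2l stand above 1000 CPM only in the Smr2-positive cells, by the rule, while the points of Wfdc2, Slc39a8 and Cldn10 lie close together in Smr2-positive and other proximal cells.

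Markers of other cell types were read in the same sums. Basal markers summed to 967 and 830 CPM in members and 551 and 405 CPM in other proximal cells, but Krt15 alone gave 940.3 and 796 CPM of it; Krt5, Krt14 and Trp63, which define basal cells, stayed at 11.5 CPM or below in members. Fibroblast markers summed to 27.5 and 64.0 CPM, macrophage markers to 56.0 and 2.1 CPM, T-cell markers to 38.7 and 29.4 CPM, endothelial markers to 23.9 and 19.9 CPM and neuroendocrine markers to 19.4 and 11.5 CPM in members. The same sums in other proximal cells were 27.1 and 116 CPM for fibroblast, 78.9 and 2.5 CPM for macrophage, 34.8 and 24.6 CPM for T-cell, 17.0 and 20.2 CPM for endothelial and 6.2 and 2.5 CPM for neuroendocrine markers. Lum of fibroblasts, Cdh5 of endothelium, Trac of T cells and Svs4 and Svs5 of the seminal vesicle were at 0 in members of both animals. Macrophage C1qa, C1qb, Cd68 and Adgre1 were at 0 in those of replicate 2. The other genes of the casein and Smr locus were at 3.15 CPM or below in members, Csn2, Csn3 and Smr3a among them, and none passed the filter on low counts.

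The first comparison asked how the members differed from the other proximal cells of the same animals. Members held more RNA of Cited1, Ccnd2, Krt15 and Igfbp7 and less of Saa1, Adh6a, Mug1, Csta1, Pigr and Egf, in both animals. Counts were summed per animal and cell group and tested with edgeR's quasi-likelihood test with the animal as a block, p-values adjusted by Benjamini-Hochberg over all genes. Of 9719 genes tested, 687 passed an adjusted p of 0.05 (7.07%), 370 higher in members (3.81%) and 317 lower (3.26%); with library totals as the only scaling, 240 were higher and 536 lower. With 2 animals, the p-values rest on a spread that is shared across genes.

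The 2 groups were not chosen alike, since only the other proximal cells had to pass the Clu and Fxyd4 level. A comparison on equal terms was therefore added after the data were seen, with the 61 and 46 members that pass that level and hold Sbp and Spink1 under 10%. It called 78 of 8523 genes (0.915%), 40 higher (0.469%) and 38 lower (0.446%). Of the 687 genes, 662 were tested again, 638 kept their direction and 58 were called in the same direction. The changes below are given for all members first and for these matched members second.

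Among the genes higher in members, Cited1, a transcriptional co-activator, stood at 117 and 94.4 CPM against 19.3 and 30.3 CPM. Its log2 change was 2.17 ± 0.18 (SE of the fit; edgeR adjusted p = 1.03e-29), and 1.41 in matched members (edgeR adjusted p = 0.000463). The levels of the groups did not overlap. Ccnd2 stood at 193 and 221 CPM against 74.3 and 68.8 CPM, with log2 changes of 1.62 ± 0.13 and 1.17. Luminal te2 cells held more Ccnd2 than members, at 444 and 359 CPM, and less Cited1, at 43.8 and 58.4 CPM. Krt15, a keratin of basal and stem-like epithelial cells, stood at 940.3 and 796 CPM against 540.1 and 371 CPM, with log2 changes of 1.03 ± 0.10 and 1.23, and Igfbp7, a secreted IGF-binding protein, at 289.8 and 267.5 CPM against 170.2 and 155 CPM, with log2 changes of 0.87 and 1.06. Each of these 4 genes was called in both versions.

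These differences were spread over many cells. At least 1 UMI of Cited1 was found in 42.4% and 40.9% of members against 8.46% and 14.2% of other proximal cells. For Krt15 the shares were 86.3% and 72.2% against 39.3% and 36.0%, and for Igfbp7 67.8% and 58.3% against 35.8% and 33.3%. Median depth was somewhat higher in members (6040 and 7499 against 5485 and 6490 UMIs); for cells thinned to 1000 UMIs, the expected Cited1 shares were 11.1% and 9.57% against 1.91% and 2.86%, the Krt15 shares 50.1% and 34.1% against 21.8% and 19.97%, and the Igfbp7 shares 24.4% and 22.4% against 12.7% and 11.1%.

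Clca1, a secreted protein of goblet-type cells, had a large log2 change of 2.24 ± 0.24 (edgeR adjusted p = 9.33e-18) but rested on few cells. It stood at 60.6 and 62.9 CPM in members against 13.2 and 14.5 CPM. Only 24 and 10 members held it, and 1 cell supplied 38 of the 60 UMIs in replicate 2. Dmbt1, a scavenger-receptor-type protein of mucosal fluids, was unequal between the animals, with 134 and 51.4 CPM in members against 40.2 and 41.1 CPM and within-animal log2 changes of 1.79 and 0.41; it was not called in matched members (edgeR adjusted p = 0.0751). Apoc1, an apolipoprotein, and Serpinb5, an epithelial serpin, were higher with log2 changes of 1.48 and 1.30 and were called in matched members too. Gm42164 stood at 239 and 169 CPM against 11.6 and 10.7 CPM, with the uncertainty given above.

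**Figure D3:**
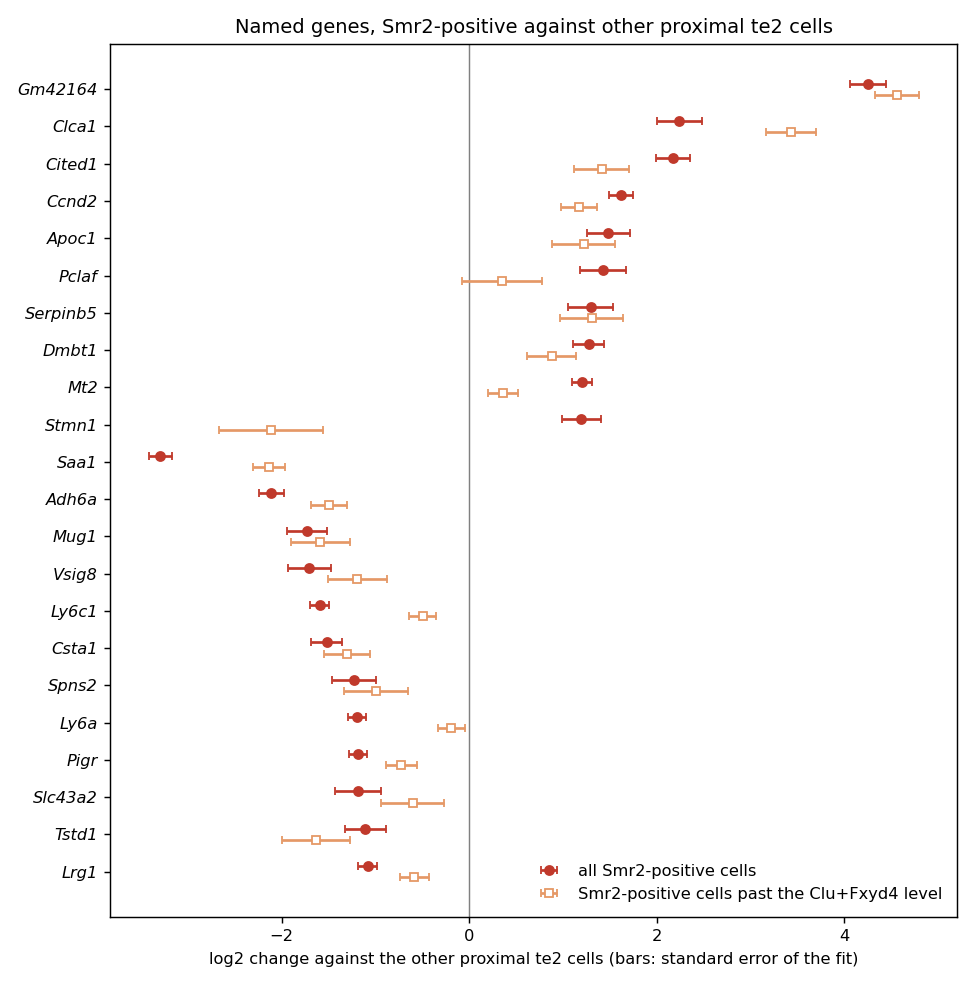
Log2 change of the 22 named genes in Smr2-positive against other proximal te2 cells, with the standard error of the fit, for all members (filled circles) and for members past the Clu and Fxyd4 level (open squares). Cited1 and Ccnd2 stay above 1 in both versions, Ly6a and Mt2 move towards 0, and Stmn1 changes sign.

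The genes lower in members were led by acute-phase and mucosal genes. Saa1, an acute-phase apolipoprotein, stood at 13.2 and 204.6 CPM in members against 524 and 1201 CPM, a log2 change of -3.29 ± 0.12 (edgeR adjusted p = 9.61e-154) and of -2.14 in matched members. Its 2 animals differed more than 10-fold among members, with within-animal changes of -5.09 and -2.45, so the direction was shared and the size was not. Pigr, the receptor that carries IgA to the lumen, stood at 1795 and 3050 CPM against 4802 and 6695 CPM, with log2 changes of -1.19 ± 0.10 and -0.72 (edgeR adjusted p = 0.00364 in matched members). Lrg1, a leucine-rich glycoprotein of the acute phase, stood at 177 and 272 CPM against 286 and 832 CPM, with log2 changes of -1.08 and -0.58.
Of 14 mucosal defence genes tested, 7 were lower and 1, Dmbt1, was higher in members, with a median log2 change of -0.71 beside 0.00 over all genes; in matched members 3 were lower and none higher, with a median of -0.41. The lower genes Ltf (lactoferrin) and Lbp did not pass in matched members (edgeR adjusted p = 0.78 and 0.25).

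Several genes outside that group were lower in both versions. Adh6a, an alcohol dehydrogenase, stood at 32.6 and 80.8 CPM against 214 and 264 CPM, with log2 changes of -2.11 ± 0.14 and -1.49. Mug1, a protease inhibitor of the macroglobulin family, had log2 changes of -1.73 and -1.59. It rested on 12 and 43 UMIs in members, 6.11 and 45.1 CPM against 54.2 and 102 CPM. Its within-animal changes of -2.82 and -1.06 were unequal. Csta1, a cysteine protease inhibitor, had log2 changes of -1.52 and -1.31. Egf, epidermal growth factor, stood at 113 and 155 CPM against 268 and 291 CPM, with log2 changes of -1.0 ± 0.11 and -0.85 (edgeR adjusted p = 0.00012 in matched members).

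Part of the first result followed the Clu and Fxyd4 level itself. Ly6a and Ly6c1, small surface proteins anchored by GPI, were lower in all members, with log2 changes of -1.20 and -1.59, but were not called in matched members (-0.19 and -0.50, edgeR adjusted p = 0.717 and 0.0641). Ly6c1 stood at 410 and 753 CPM in members past the Clu and Fxyd4 level, 92.6 and 119 CPM in members under it, and 627 and 1040.3 CPM in other proximal cells. Psca stood at 1445 and 1503 CPM past the level, 424 and 351 CPM under it and 1412 and 1117 CPM in other proximal cells. Of 9 proximal markers tested, 5 were lower in all members, with a median of -0.49, while in matched members none was lower and 1, Wfdc2, was higher.

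**Figure D4:**
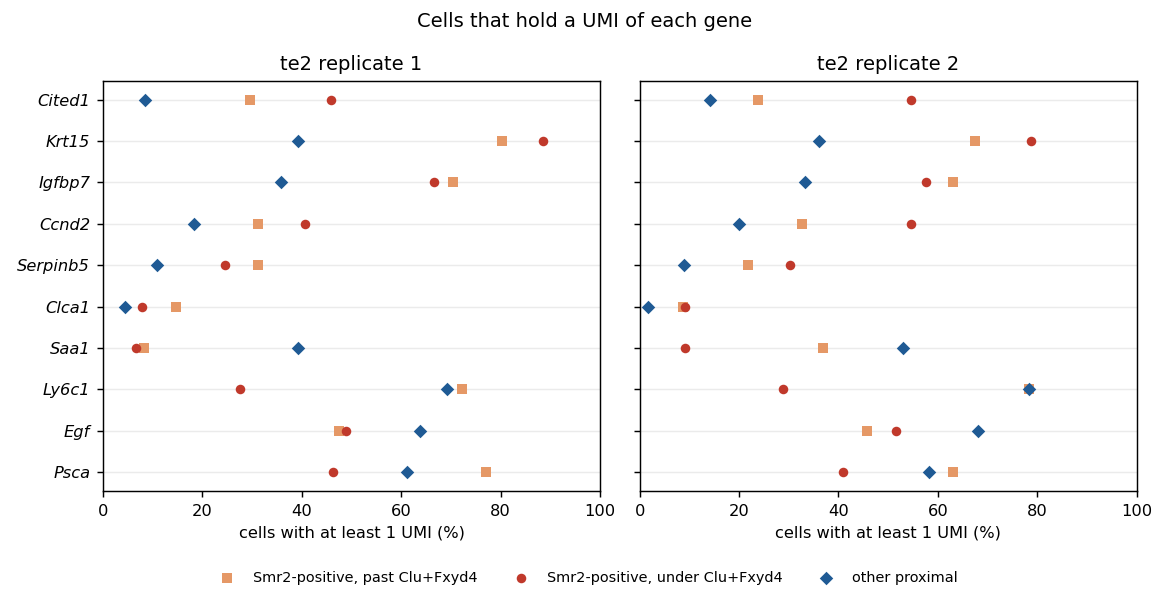
Percent of cells with at least 1 UMI of each gene, with 1 panel per te2 animal, for Smr2-positive cells past and under the Clu and Fxyd4 level and for other proximal cells. For Cited1, Krt15 and Igfbp7 both sets of Smr2-positive cells lie above the other proximal cells in both animals, while for Ly6c1 the cells past the level lie near the other proximal cells.

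Cell division genes were distributed in the same way. Of 25 cycle genes tested, 7 were higher in members and none lower, with a median log2 change of 0.69; in matched members 1, Ccnd2, was higher and 1, Stmn1, lower among 16, with a median of -0.16. DESeq2 gave these 25 genes no adjusted p. Stmn1, a microtubule-destabilising protein, stood at 77.4 and 40.9 CPM in members against 27.9 and 27.2 CPM, a log2 change of 1.19 that became -2.11 in matched members, where it rests on 2 and 3 UMIs. Pclaf, a PCNA partner in DNA replication, had log2 changes of 1.43 and 0.35 (edgeR adjusted p = 0.85 in matched members). At least 3 UMIs of 10 division genes were held by 21 (8.24%) and 7 (6.09%) members against 6 (2.99%) and 8 (3.56%) other proximal cells. Members under the Clu and Fxyd4 level reached 9.90% and 9.09%, and luminal te2 cells 12.2% and 10.3%.

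Ion and fluid transport genes were mostly lower in all members, 10 lower and 2 higher of 22 tested, with a median of -0.24. Slc12a2, a sodium-potassium-chloride cotransporter, stood at 2242 and 2533 CPM against 3210.2 and 3385 CPM (log2 change -0.38), Slc26a4, an anion exchanger, had a log2 change of -0.79, and Scnn1a, an epithelial sodium channel subunit, of -0.77. In matched members edgeR called none of 21 genes lower and 1, Clca1, higher, with a median of -0.07; 7 had an unadjusted p under 0.05. Claudin and junction genes had 5 lower and none higher of 22 tested, with a median of -0.20, E-cadherin (Cdh1) leading with a log2 change of -0.67. In matched members edgeR called none of 21, 5 had an unadjusted p under 0.05 and the median was -0.16. Over all genes 0.915% were called in matched members, so lists of this size could hold few or no calls there. Both metallothioneins, which bind zinc and copper, were higher in all members: Mt2 stood at 402.9 and 402.8 CPM against 173 and 200.2 CPM (log2 change 1.20 ± 0.11) and Mt1 had a log2 change of 0.63, but neither was called in matched members (0.36 and 0.22). They were the 2 genes called among 21 of metal transport, or 9.52%, which is near the 7.07% called over all genes.

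The remaining lists are given in turn, beside calls of 7.07% over all genes and 0.915% in matched members. Of 24 genes of the unfolded protein response, 5 were lower and none higher, with a median of -0.21. In matched members 1 was lower, with a median of -0.28. The chaperone Hspa5 led, at 724 and 1009 CPM against 1197 and 1553 CPM (log2 change -0.58 in both versions). Of 34 respiratory-chain genes 6 were higher and none lower, with a median of 0.21, Sdhb and Uqcrh leading with log2 changes of 0.42 and 0.41. In matched members edgeR called none of them, and 12 had an unadjusted p under 0.05. Their median there was 0.22, so the lean was kept without calls. Of 19 immediate-early genes 5 were lower and 1 higher, and of 16 glycolysis genes 4 were lower; in matched members edgeR called none of 18 and none of 16, with 0 and 1 at an unadjusted p under 0.05. Of 18 androgen-regulated genes 3 were higher and 6 lower, and Azgp1, a secreted zinc-binding glycoprotein, was lower in both versions (-0.61 and -0.69). In matched members 3 androgen-regulated genes were lower and none higher. Of 11 genes of the estrogen response 3 were higher and 3 lower, and edgeR called none of 10 in matched members, where 1 had an unadjusted p under 0.05. Of 17 interferon genes 3 were higher and 2 lower, and in matched members 1 of 15 was higher and none lower; Ifitm3 was higher in both versions (0.89 and 0.60), and Isg15 at 15.3 and 113 CPM against 26.3 and 34.7 CPM went opposite ways in the 2 animals. Of 26 redox genes 4 were higher and 3 lower, or 2 and 1 in matched members, Gstm1, a glutathione transferase, being higher in both versions (0.68 and 0.69).
None of 14 hormone receptor and receptor-signalling genes was called by edgeR, and none had an unadjusted p under 0.05; DESeq2 gave these genes no adjusted p. The prolactin receptor Prlr stood at 258 and 291 CPM in members against 316 and 296 CPM, and Esr1, the estrogen receptor, at 9.68 and 13.6 CPM against 10.1 and 8.21 CPM.

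Members were also ordered by their level of the pair and divided into a low, a middle and a high group of equal size within each animal, as a description. Of 41 genes followed, Smr2 and Smr2l rose by construction. From the low to the high group, Cited1 went from 82.1 through 110.3 to 164 CPM in replicate 1 and from 77.7 through 80.9 to 137 CPM in replicate 2. Cldn10 went from 557 through 605 to 753 CPM and from 426 through 592 to 614 CPM. Wfdc3, a WAP-domain protease inhibitor, went from 3087 through 3826 to 3939 CPM and from 3696 through 3717 to 3924 CPM. Tstd1, a small sulfur-transfer protein, went from 38.2 through 23.6 to 14.5 CPM and from 25.9 through 25.1 to 24.2 CPM. In replicate 2 it had only 24 UMIs in all members, so its values there are nearly flat. The remaining genes had no common order in both animals. With 3 groups and 2 animals some of the genes followed can be in order by chance, which was not tested.

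The second comparison set the members against the Cyp2f2-type cells of the sham animals, which are cells with Cyp2f2, Nxpe2, Upk1a and Car2 together at 2 UMIs and 0.15% or more. State and treatment change together here and cannot be told apart. The values of the other proximal te2 cells are given beside those of the members; that comparison with sham uses the same sham cells. The sham group held 71 and 188 cells of lower depth, with medians of 2230.0 and 2012.5 UMIs and sums of 197196 and 488423 UMIs, and 22 cells of each animal (31% and 11.7%) also held Sbp and Spink1 at 10% or more.

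Members held more RNA of Fxyd4, Ly6c1, Psca, Lcn2, Wfdc3, Wfdc18 and Krt15 and less of the uroplakin Upk1b, the phosphate transporter Slc34a2, Spink1, Igfbp5 and Meis2. Of 7931 genes tested by edgeR's quasi-likelihood test, 944 passed an adjusted p of 0.05 (11.9%), 457 higher in members (5.76%) and 487 lower (6.14%). The count depended on single libraries: 519 genes passed without te2 replicate 2 and 199 without sham replicate 2. Without sham replicate 2, Serpinb5, Prlr and Ltf, given below, were not called (edgeR adjusted p = 0.0802, 0.101 and 0.186). Psca and Nupr1 were not called by DESeq2 (adjusted p = 0.351 and 0.128). With cells rich in Sbp and Spink1 left out on both sides it was 841, 763 of them among the 944.

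Fxyd4, a regulator of ion transport, stood at 700 and 1122 CPM in members and 20.3 and 18.4 CPM in the sham cells, a log2 change of 5.52 ± 0.34 (edgeR adjusted p = 5.6e-10). The other proximal te2 cells were chosen by Clu and Fxyd4, so their 2100 and 1752 CPM are a description. Lcn2, the iron-scavenging lipocalin of mucosal defence, stood at 201 and 204 CPM against 10.1 and 6.14 CPM in sham, with log2 changes of 4.71 ± 0.36 and, in other proximal cells, 4.80. Wfdc3 stood at 3596 and 3763 CPM against 319 and 159.7 CPM (3.95 ± 0.31, and 3.48 in other proximal cells). Psca stood at 668 and 926 CPM against 0 and 69.6 CPM (4.03 ± 0.38, and 4.59). Lcn2, Wfdc3 and Psca were called higher than in sham in both kinds of te2 proximal cell.

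Cited1, Krt15 and Serpinb5 were higher than in sham and also higher than in the other proximal te2 cells. Cited1 had 2 UMIs in the sham cells, and its summed level in members was 37.6 times theirs (counting interval 10.3 to 312). Krt15 stood at 940.3 and 796 CPM against 35.5 and 174 CPM in sham, a log2 change of 2.77 ± 0.30. Serpinb5 had 1 UMI in the sham cells, a ratio of 31.7 (5.60 to 1263). Ly6c1, with 2 sham UMIs, had a ratio of 80.5 (22.2 to 666) and was higher still in the other proximal cells. Dmbt1, Gm12888 and Gm42164 are listed in neither sham table, so no fold is given for them.

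The lists below are given beside calls of 11.9% over all genes. Of 12 mucosal defence genes 6 were higher in members than in the sham cells and none was lower. The median log2 change was 1.90 beside 0.00 over all genes. Among the higher genes, Dmbt1 and Ltf were not called without sham replicate 2, nor Lbp by DESeq2 (adjusted p = 0.0628). The same list had 7 lower genes against the other proximal te2 cells. Saa1, too rare here to be tested, had no UMI in the sham cells. Of 24 redox genes 9 were higher and 3 lower, led by Gsr, glutathione reductase, at 219 and 222 CPM against 10.1 and 26.6 CPM (3.30 ± 0.30, and 3.36 in other proximal cells). Of 10 genes of the estrogen response 6 were higher and 1 lower, Ltf and Krt19 among the higher. Fewer redox and estrogen response genes were called without sham replicate 2, as fewer were over all genes. Prlr was higher, at 258 and 291 CPM against 132 and 73.7 CPM (1.48 ± 0.25). It was 1 of 2 higher genes among 9 hormone receptor genes, and neither was called without sham replicate 2. The other, Stat5b, was not called without te2 replicate 2 either.

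**Figure D5:**
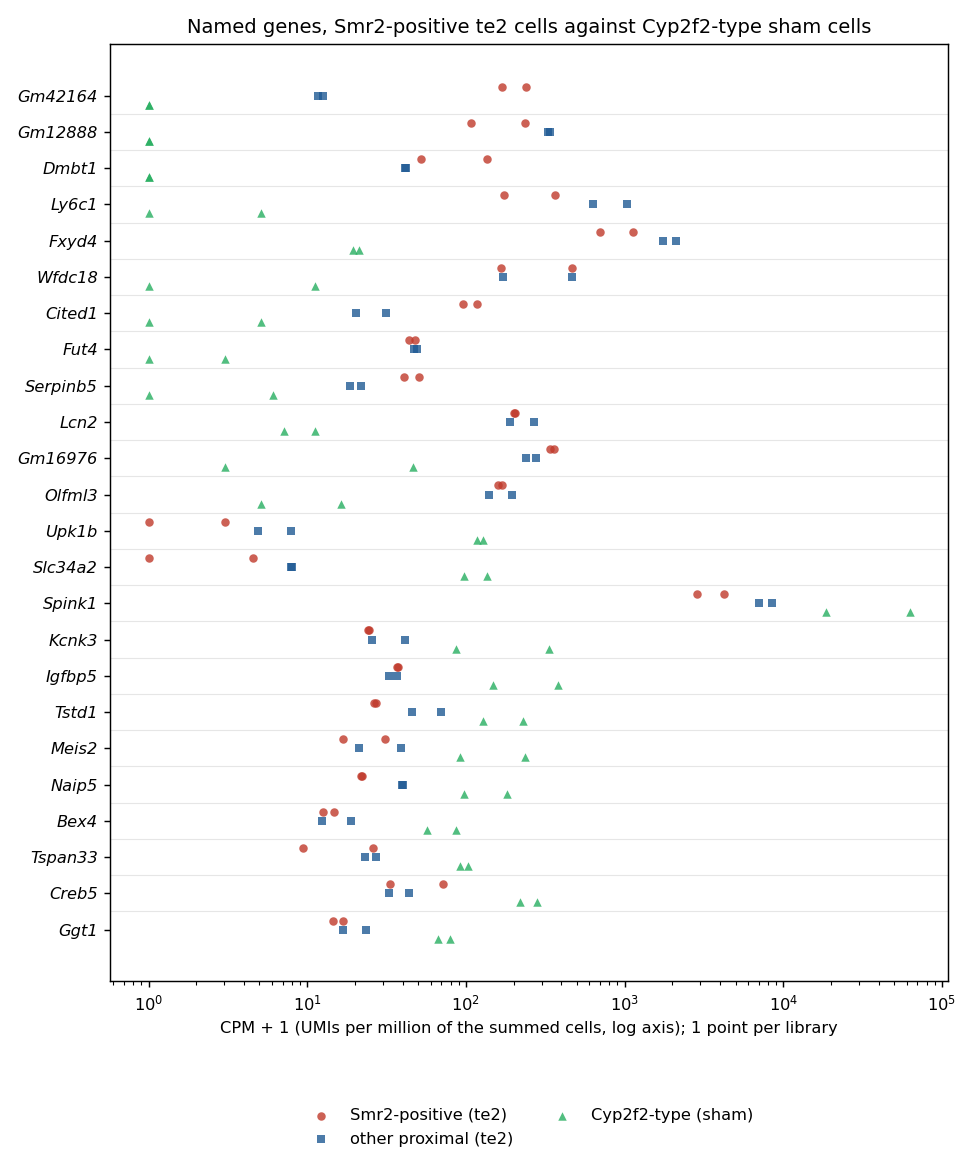
Level of the 24 genes named in the comparison with sham, as CPM plus 1 on a log axis, with 1 point per library for Smr2-positive and other proximal te2 cells and Cyp2f2-type sham cells. For most genes both te2 groups lie on the same side of the sham cells, for Fxyd4 in the other proximal cells by their choice, and Cited1 and Serpinb5 lie highest in the Smr2-positive cells.

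Genes lower in members than in the sham cells included those of the urethral side. The sham cells were chosen by genes of that side, so lower levels of such genes in members follow in part from the choice. The te2 libraries also held Cyp2f2-type cells, 153 and 135, of which 15 and 10 were members. Upk1b, a uroplakin of the urothelial surface, had 4 UMIs in all members, 2.04 and 0 CPM, against 127 and 117 CPM in sham, a log2 change of -6.39 ± 0.47 (edgeR adjusted p = 1.32e-08) beside -4.55 in other proximal cells. Slc34a2 stood at 3.57 and 0 CPM against 96.4 and 135 CPM, with log2 changes of -5.65 and -4.25. The urethra-near marker list, which holds the genes that chose the sham cells, summed to 651 and 570 CPM in members and 2510 and 3507 CPM in sham.
Spink1, a secreted trypsin inhibitor of the ventral lobe, stood at 2861 and 4200 CPM against 62618 and 18660 CPM, a log2 change of -3.64. With cells rich in Sbp and Spink1 left out the change was -2.84. That limit uses Spink1 itself, so the second value is only a description. Kcnk3, a potassium channel, was lower by the first fit (-3.05) and was not called with those cells left out (edgeR adjusted p = 0.0509).

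Growth factor and transcription factor lists leaned the same way. Of 19 growth factor and receptor genes 6 were lower in members and none higher, with a median of -0.47, beside calls of 11.9% over all genes. Igfbp5 stood at 36.2 and 35.7 CPM against 147 and 379 CPM (-3.03 ± 0.28, and -3.27 in other proximal cells). Of 36 transcription factor genes 10 were lower and 3 higher. Fewer genes of both lists were called without sham replicate 2, as fewer were over all genes. Meis2, a homeobox gene, stood at 30.1 and 15.7 CPM against 91.3 and 233 CPM (-2.91 ± 0.32, and -2.83), Creb5 had log2 changes of -2.41 and -2.82, and Nupr1, a stress-responsive chromatin protein, was higher at 1707 and 3419.9 CPM against 679.5 and 1067 CPM (1.47 and 2.01).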

How the data were processed

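Single-cell RNA libraries (10x 3' v3.1) of 2 sham and 2 te2 ventral prostates were deposited by the authors as UMI counts per gene and cell, with Seurat 5.0.1, R 4.3.2, bustools 0.39.4, kallisto 0.46.1 and the build GRCm39 named in the submitters' processing notes. The deposited counts list genes seen in at least 3 cells of a library; totals were 3999690 and 5513275 (sham) and 12259610 and 13134017 (te2) UMIs. Each library is 1 animal, per the labels.

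Cells with at least 1000 UMIs and at most 20% mitochondrial UMIs were kept (951, 1440, 2057 and 1881); scrublet in scanpy 1.11.5 marked 47 doublets (0.743%), which stayed in. Counts were summed per animal and cell group and fitted in edgeR 4.0.16 (TMM, filterByExpr, glmQLFTest, two-sided); the spread in the 4 sums is shared over genes. Genes that chose the cells stayed in the fits but are left out of the counts of calls and get no p-value for the comparison they chose. Sbp and Spink1 were not left out of the counts against sham, also where cells rich in them were removed. CPM uses the summed totals alone; log2 changes use TMM factors (0.902 to 1.06 with all members and other proximal cells). The SE of a log2 change was its size over the square root of F.

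Named genes are the 12 higher and 12 lower genes of largest log2 change past an adjusted p of 0.05, averaging log2 CPM 5 or more, with the same direction in both animals (or groups that do not overlap), and up to 4 genes of smallest p per list. Some genes that meet this rule are not reported here. Other list members given were chosen after their values were seen. The members and lists were chosen with earlier results of these data known. Alternatives covered scaling, count filters, DESeq2 1.42.0, thinning, the block, cell limits, doublets, left-out libraries and overlapping cell groups. Within te2 both sums come from the same animal (correlation of deviations 0.245). Intervals cover counting error only.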

Additional observations from a re-analysis of the deposited data

How the results depend on the processing

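With 2 animals a group the calls rest on few sums. Against the other proximal te2 cells, 687 genes passed, but 97 by DESeq2 (which gave 519 of the 687 no adjusted p), 329 with sums thinned to the smallest total, 353 at a limit of 0.5% for Smr2 and Smr2l, 78 with matched members, and 14 with no replicate block; the block is the animal, which gave both sums. Without 1 te2 animal no test is left there, and only the within-animal values were compared. The matched version reversed Stmn1 (-2.11), Psca (0.27), Creb3l4 (-0.083), Mki67 (-0.48), Nupr1 (0.37), Aldh1a1 (-0.19) and Anxa2 (0.10). Leaving out te2 replicate 1 or 2 gave 0.12 and -1.45 for Atf3 and 1.76 and -0.66 for Isg15. Against sham, 944 genes passed, but 255 by DESeq2, 342 with thinned sums, and 199 to 764 with 1 library left out. There the replicate numbers share only a number (correlation of deviations -0.05), and the fit with the replicate block gave 710. The members' shares were 15.6% and 8.56% at a limit of 0.1%, 6.56% and 3.46% at 0.5%, and 14.3% in replicate 1 among cells of at least 2000 UMIs. Over 84 genes named in the comparison with sham and all its alternatives, 1251 values kept direction and call and 147 kept only the direction; for 93 genes of the first comparison the numbers were 1135 and 257, and the cause of the losses was not tested. Sham cells were shallower, so genes of low level could be tested less often there.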
